A study of Mus musculus with 13 samples.

Results

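Neural tube patterning genes divide the embryonic spinal cord and hindbrain into bands of progenitors from its ventral to its dorsal side, and 10 of them were followed here in whole mouse embryos of embryonic day 9.5. They were chosen by name. The ventral members were Shh, Foxa2, Nkx2-2, Nkx6-1 and Olig2, the intermediate ones Pax6, Dbx1 and Irx3, and the dorsal ones Pax3 and Pax7. All 10 were found among the 23217 genes of the deposited table, and all 10 were among the 12755 genes whose mean was at least 1 FPKM over the embryos and which were tested. FPKM counts fragments relative to transcript length and to the mapped total of the library. The labels sort the 13 embryos, all on the C57BL/6J background, into 10 called xHomo and 3 called xHet, without spelling out either name, an allele or a litter. The study asked how Tet1, which oxidizes methylated cytosine, takes part in erasing imprints. As the study is known, xHomo and xHet name Tet1 genotypes of the fathers, which the labels do not state. Each library was poly(A) RNA of an embryo, and nothing in the labels ties embryos to litters, sexes or batches, so the p-values measure only the spread between these samples.

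Sonic hedgehog, secreted by the notochord and the floor plate, and Bmp and Wnt proteins, secreted by the roof plate, form opposing gradients across the neural tube. Hedgehog binds the receptor Ptch1, which frees the transducer Smo to act through the Gli transcription factors. Nkx2-2, Nkx6-1 and Olig2 are switched on by the signal, while Pax6, Dbx1, Irx3, Pax3 and Pax7 are excluded where it is strongest, and several of these factors repress each other across a shared border. In RNA from a whole embryo, fewer cells of a domain and less RNA per cell cannot be told apart.

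The neural tube is not the only place in the embryo where these genes are active. Shh and Foxa2 are also expressed in notochord and gut endoderm, Shh in the limb bud, Pax3 and Pax7 in the dermomyotome and neural crest, Pax6 in the eye and forebrain, and Irx3 in mesoderm. On the mm9 build of the table Foxa2 lies on chromosome 2 from 147868614 to 147872705, Nkx6-1 on chromosome 5 from 102088216 to 102093730 and Olig2 on chromosome 16 from 91225795 to 91228922. Dbx1 lies on chromosome 7 from 56886869 to 56892205, Irx3 on chromosome 8 from 94322410 to 94325553, Pax3 on chromosome 1 from 78097842 to 78193711 and Pax7 on chromosome 4 from 139293996 to 139388883. The loci of the other members are bundles that the table shares with another gene. Shh is joined with 9530036O11Rik (chromosome 5, 28783380 to 29045749), Nkx2-2 with its antisense gene Nkx2-2as (chromosome 2, 147003282 to 147157417) and Pax6 with the opposite-strand gene Pax6os1 (chromosome 2, 105376237 to 105537521). These partners were listed at no more than 0.1, 0.36 and 0.19 FPKM in any embryo, and whether the quantification used strand is not stated, so reads of each pair may have been shared.

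Tet1 acts on cytosines followed by guanine, and the promoter windows of the members held more of this pair of bases than the median window of all genes. RefSeq start sites on the GRCm38.p6 build gave 11 windows of 300 bases, from 250 bases before to 50 after a start, for 8 of the members. They held a median of 17 CpG pairs, against 7 over 32851 such windows of all genes. The number ran from 12 in a Foxa2 window to 40 at Nkx6-1. Methylation was not measured in these samples. The windows of Nkx6-1 and Dbx1 are shown because those members were the most alike across embryos once xHomo embryo 3 was left out, a choice made after their values were seen, with each CpG in capitals. Both genes lie on the minus strand, at chr5:101664662-101664961 for Nkx6-1 and chr7:49636786-49637085 for Dbx1.
Nkx6-1: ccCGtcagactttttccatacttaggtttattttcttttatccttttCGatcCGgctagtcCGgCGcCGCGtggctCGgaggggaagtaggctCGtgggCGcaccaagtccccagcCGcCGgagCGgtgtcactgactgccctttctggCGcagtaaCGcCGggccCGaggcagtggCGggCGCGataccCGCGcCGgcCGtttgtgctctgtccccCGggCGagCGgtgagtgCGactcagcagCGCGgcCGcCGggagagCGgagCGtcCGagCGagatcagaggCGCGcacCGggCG
Dbx1: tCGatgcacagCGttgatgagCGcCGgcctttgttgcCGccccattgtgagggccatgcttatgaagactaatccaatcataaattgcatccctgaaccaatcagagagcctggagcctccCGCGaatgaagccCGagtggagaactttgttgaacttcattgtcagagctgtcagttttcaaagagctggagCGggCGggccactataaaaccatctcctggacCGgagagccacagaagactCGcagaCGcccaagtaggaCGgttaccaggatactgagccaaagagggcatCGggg
The Gli binding sequence GACCACCCA was searched on both strands and was found in 0 of the 11 windows, and it occurs in 0.253% of all windows. The FoxA sequence TGTTTAC was likewise found in 0 of 11, against 3.65% of all windows. This says only that these letters are not in these windows.

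The libraries were not equally alike. Summed FPKM ran from 500126 to 662936 in the xHomo embryos and from 543948 to 570161 in the xHet embryos, and the read depth is unknown. In xHomo embryos 3 and 9, 7.90% and 2.66% of genes lay at least 1 log2 unit from the median over the embryos, against 0.651% to 1.10% in the other xHomo embryos and 0.666% to 0.698% in the xHet embryos. Their median correlations with the other libraries were also the lowest, at 0.922 and 0.918. Tet1 ran from 1.11 to 2.87 FPKM in the xHomo embryos and from 1.93 to 2.61 FPKM in the xHet embryos. Xist, which coats the inactive X, was 30.5 FPKM or more in xHomo embryos 2, 3, 7, 9 and 10 and no more than 0.1 FPKM in every other embryo. The Y-linked genes Ddx3y and Eif2s3y were no more than 0.04 FPKM in the embryos with high Xist and 11.8 FPKM or more in every other embryo. By these genes the embryos with high Xist were female and the others male. The 3 xHet embryos are thus all male and of the low-Xist kind, and label and Xist class cannot be told apart for the embryos with high Xist.

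Shh, the ligand itself, varied widely between xHomo embryos and little between xHet embryos. It ran from 5.67 FPKM through a median of 13.9 to 16.3 FPKM in the xHomo embryos, against 10.7, 11.9 and 11.7 FPKM in xHet embryos 1 to 3. No xHomo value fell inside the xHet range: 8 lay above it and 2, those of embryos 3 and 9, below. How many of all genes had no xHomo value inside the xHet range was not counted. The means were 12.8 ± 3.20 FPKM (SD, n = 10) in xHomo and 11.4 ± 0.630 FPKM (SD, n = 3) in xHet embryos, a log2 difference of 0.11 on the log2(FPKM+1) scale (SE 0.23, 95% interval -0.37 to 0.59, limma adjusted p = 0.892). Foxa2 encodes a forkhead factor of the floor plate, notochord and endoderm. Its values were 2.34 FPKM at the lowest, 3.08 at the median and 4.43 at the highest in the xHomo embryos, and 2.11, 2.94 and 3.20 FPKM in the xHet embryos. The groups overlapped, with 4 xHomo embryos above and 6 within the xHet range (log2 difference 0.19, SE 0.15, 95% interval -0.13 to 0.51, limma adjusted p = 0.692). xHomo embryo 9, low for Shh, had 2.87 FPKM of Foxa2, inside the xHet range.

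Nkx2-2, which marks the progenitors next to the floor plate, was the member with the tightest xHet values. It had 0.99 FPKM at the lowest, 2.18 at the median and 2.36 FPKM at the highest in the xHomo embryos, against 1.73, 1.75 and 1.75 FPKM in the xHet embryos. As for Shh, no xHomo value fell inside the xHet range, with 7 above and 3 below. That range, from 3 embryos, ran only from 1.73 to 1.75 FPKM, so a value outside it says little. The 3 below were xHomo embryos 9, 3 and 5, at 0.99, 1.11 and 1.68 FPKM. The means, 1.95 ± 0.520 FPKM (SD, n = 10) in xHomo and 1.74 ± 0.0115 FPKM (SD, n = 3) in xHet embryos, did not pass the test (log2 difference 0.08, SE 0.17, 95% interval -0.28 to 0.44, limma adjusted p = 0.894).

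Nkx6-1, a repressor expressed through much of the ventral tube, ran from 3.64 FPKM in xHomo embryo 3 through a median of 8.96 to 12.2 FPKM in xHomo embryo 8, while the xHet embryos had 9.11, 7.04 and 7.74 FPKM. The groups overlapped, and this was the member with the widest range among xHomo embryos, 3.34-fold from lowest to highest. The means were 8.37 ± 2.33 FPKM (SD, n = 10) in xHomo and 7.96 ± 1.05 FPKM (SD, n = 3) in xHet embryos. The log2 difference was 0.02 (95% interval -0.47 to 0.51, limma adjusted p = 0.978), and its sign turned under 2 of the 3 rescalings. Olig2, a factor of motor neuron progenitors, had 3.35 FPKM at the lowest, 5.97 at the median and 6.53 FPKM at the highest in the xHomo embryos, and 6.99, 6.02 and 5.51 FPKM in the xHet embryos. Here no xHomo embryo exceeded the xHet range, 7 lay within it and 3, embryos 2, 3 and 9, lay below (log2 difference -0.15, SE 0.17, 95% interval -0.51 to 0.21, limma adjusted p = 0.793).

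The intermediate members did not share a pattern. Pax6, a paired homeobox factor of the intermediate tube, had 9.13 FPKM at the lowest, 14.3 at the median and 16.3 FPKM at the highest in the xHomo embryos, against 16.76, 15.71 and 14.97 FPKM in the xHet embryos. No xHomo embryo lay above the xHet range and 7 of 10 lay below it. The means were 13.7 ± 2.16 FPKM (SD, n = 10) in xHomo and 15.8 ± 0.899 FPKM (SD, n = 3) in xHet embryos, a log2 difference of -0.20 (SE 0.14, 95% interval -0.49 to 0.09, limma adjusted p = 0.641). Pax6 and Olig2 were the members with no xHomo value above the xHet range.

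Dbx1, which marks a narrow band of interneuron progenitors in the middle of the tube, stood the other way. It had 4.67 FPKM at the lowest, 9.28 at the median and 11.2 FPKM at the highest in the xHomo embryos, against 6.96, 6.31 and 6.26 FPKM in the xHet embryos. Among xHomo embryos 7 lay above the xHet range and 2, embryos 2 and 9, below it. The means of 8.43 ± 2.20 FPKM (SD, n = 10) in xHomo and 6.51 ± 0.391 FPKM (SD, n = 3) in xHet embryos gave a log2 difference of 0.29 (SE 0.21, 95% interval -0.16 to 0.73, limma adjusted p = 0.670). Irx3, an Iroquois factor that borders the motor neuron domain, was the most abundant member. It ran from 18.6 FPKM through a median of 28.8 to 40.7 FPKM in the xHomo embryos, against 24.0, 23.6 and 22.7 FPKM in the xHet embryos. Among xHomo embryos 8 lay above the xHet range and 2, embryos 2 and 3, below it (log2 difference 0.29, SE 0.19, 95% interval -0.11 to 0.68, limma adjusted p = 0.631).

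Pax3 and Pax7, paired homeobox factors of the dorsal tube, had small differences between the labels. Pax3 had 6.52 FPKM at the lowest, 7.83 at the median and 10.7 FPKM at the highest in the xHomo embryos, and 6.62, 8.13 and 6.81 FPKM in the xHet embryos (log2 difference 0.12, 95% interval -0.13 to 0.37, limma adjusted p = 0.756). The groups overlapped, and on the log2(FPKM+1) scale Pax3 had the smallest SD of the members among xHomo embryos. Pax7 had 0.85 FPKM at the lowest, 1.78 at the median and 2.35 FPKM at the highest in the xHomo embryos, and 1.74, 1.82 and 1.7 FPKM in the xHet embryos (log2 difference -0.0047, 95% interval -0.32 to 0.31, limma adjusted p = 0.991). For both genes the lowest of all 13 embryos was xHomo embryo 3 and the highest xHomo embryo 9.

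**Figure D1:**
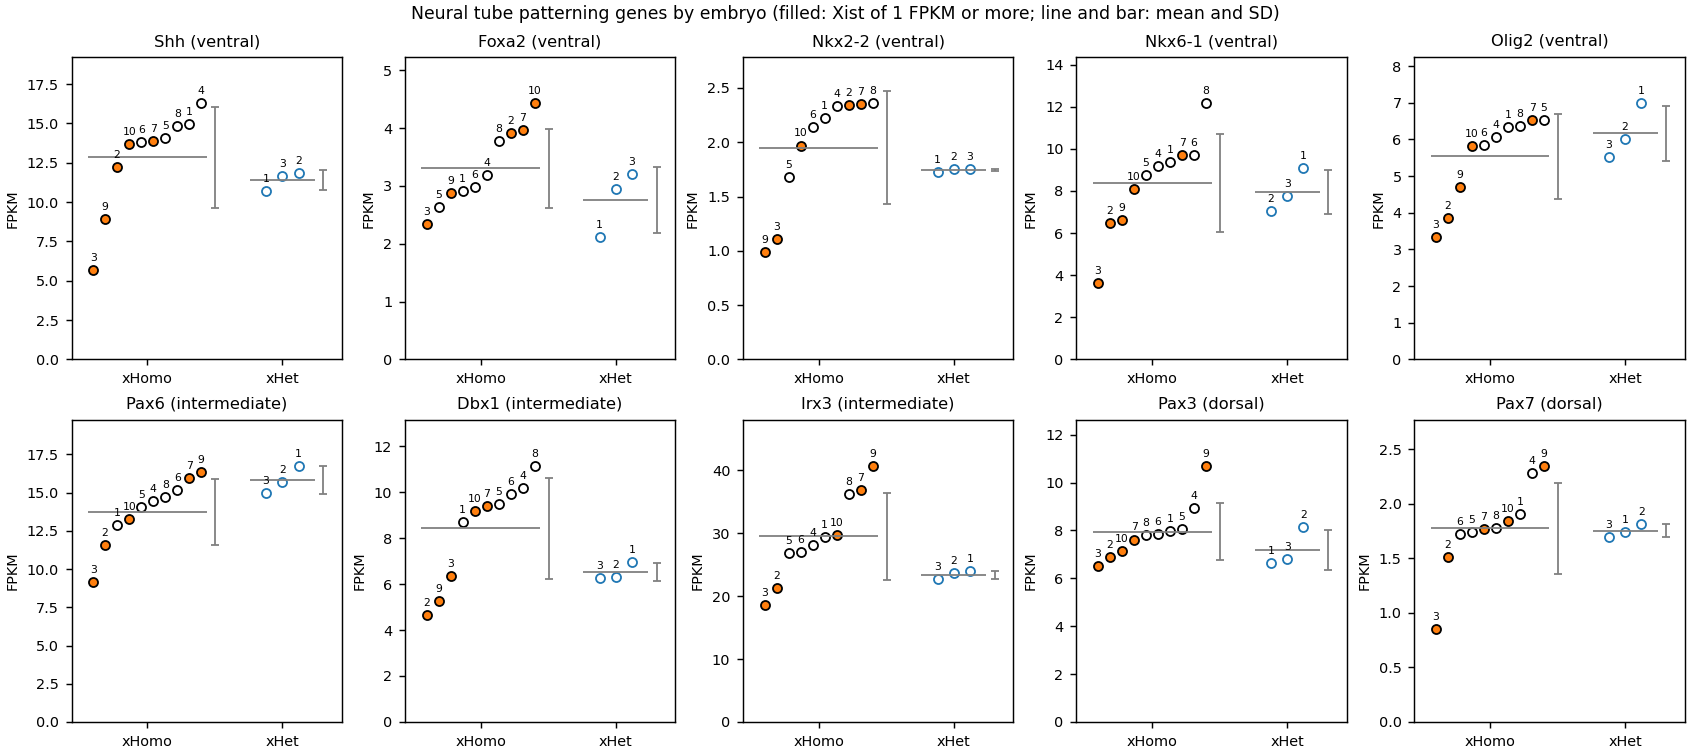
FPKM (vertical axes, from 0) of each member in the 10 xHomo and the 3 xHet embryos; numbers are embryo numbers, filled points have 1 FPKM of Xist or more, and the line and bar give the mean and SD. Shh, Nkx2-2 and Irx3 have no xHomo point within the range of the 3 xHet embryos, a trait not counted over all genes. xHomo embryo 3 is the lowest of all embryos in 7 of 10 panels, against 51.3% of all genes tested.

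Compared between the labels, 0 of 10 members passed in limma over the 12755 genes tested, where 0.0235% of genes passed (3 with xHomo higher and 0 lower, against 5 higher and 1 lower after TPM rescaling). Also 0 of 10 had an unadjusted p under 0.05, against 9.35% of genes (7.63% with xHomo higher and 1.72% with xHomo lower). After each of the 3 rescalings 1 of 10 did, Pax6, with xHomo lower. Its unadjusted limma p was 0.0232 after TPM rescaling, 0.0105 after median-of-ratios scaling and 0.0124 after quantile normalization. The limma adjusted p was 0.609, 0.424 and 0.366 there, and the counts over all genes under these rescalings are given below. The groups did not overlap for 0 of 10 members, against 2.24% of genes (1.66% with xHomo higher and 0.58% with xHomo lower). An exact permutation test per gene over all 286 splits of the embryos called 0 members and 0 of the 12755 genes, of which 1196 had an unadjusted p under 0.05. With so few splits its p could not go below 0.0035, and its smallest adjusted p was 0.388. It could hardly call a gene, so the 0 says little. The log2 difference was above 0 for 4 of 5 ventral members (3 of 5 after TPM or median-of-ratios scaling, where Nkx6-1 turned), with a median of 0.08, and for 3 of 5 intermediate and dorsal members, with a median of 0.12. Over all genes tested it was above 0 for 59.7%, with a median of 0.05. The excess of higher genes depends on the scale: among those with an unadjusted p under 0.05, 973 stood higher and 220 lower in xHomo, against 501 and 595 after TPM rescaling, 631 and 686 after median-of-ratios scaling and 776 and 687 after quantile normalization. With libraries weighted by their agreement with the rest (array weights), where xHomo embryo 3 had a weight of 0.104, Dbx1 and Irx3 passed (limma adjusted p = 0.0224 and 0.0168). That is 2 of 10 members, under weights with which 21.8% of all genes passed.

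Among the embryos with Xist under 1 FPKM, a restriction chosen after the data were seen, Shh, Dbx1 and Irx3 did not overlap between the labels. Shh was 13.8 to 16.3 FPKM in the 5 xHomo embryos and 10.7 to 11.9 FPKM in the 3 xHet embryos, a log2 difference of 0.35 (SE 0.07, limma adjusted p = 0.102). Dbx1 was 8.70 to 11.2 FPKM in these xHomo embryos, against 6.26 to 6.96 FPKM in the xHet embryos (log2 difference 0.53, SE 0.08, limma adjusted p = 0.0747). Irx3 was 26.9 to 36.2 FPKM in these xHomo embryos, against 22.7 to 24.0 FPKM in the xHet embryos (log2 difference 0.31, SE 0.10, limma adjusted p = 0.172). In this subset 0 of 10 members passed in limma, where 0.0627% of genes did, and 4 of 10, with Nkx6-1 (log2 difference 0.27), had an unadjusted p under 0.05, against 19.2% of genes. Groups did not overlap, with xHomo higher, for 3 of 10 members and for 11.7% of all genes, and with xHomo lower for 0 of 10 and for 2.02%. In the 5 xHomo embryos with high Xist the same genes had wider ranges, Shh from 5.67 to 13.9, Dbx1 from 4.67 to 9.38 and Irx3 from 18.6 to 40.7 FPKM. That set holds embryos 3 and 9.

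**Figure D2:**
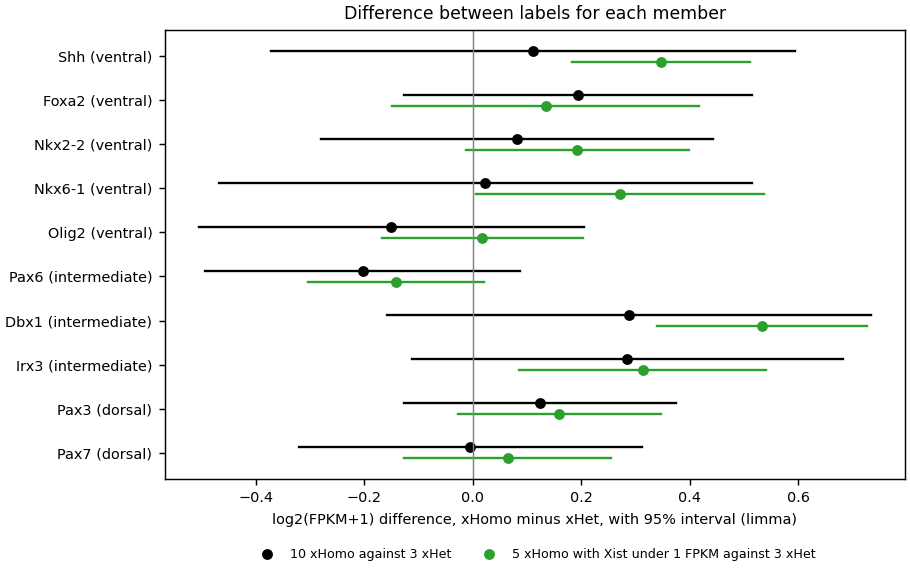
Difference in log2(FPKM+1), xHomo minus xHet, with its 95% interval from limma (horizontal axis) for each member (rows), over all embryos in black and over those with Xist under 1 FPKM in green. All black intervals include 0, and Dbx1 has the largest green value, 0.53.

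In order of level, with FPKM being per length, Irx3 came first at a mean of 29.5 ± 6.89 FPKM (SD, n = 10) in xHomo and 23.4 ± 0.637 FPKM (SD, n = 3) in xHet embryos. It exceeded Pax6 in 13 of 13 embryos. Pax6 and Shh, next in line, could not be ordered in the xHomo embryos, where Pax6 was the higher in 4 of 10, and Pax6 was the higher in 3 of 3 xHet embryos. Shh exceeded Nkx6-1 in 13 of 13 embryos. Nkx6-1, Dbx1 and Pax3 did not differ beyond their spread, with Nkx6-1 above Dbx1 and Dbx1 above Pax3 in 8 of 13 embryos each. Below them came Olig2, then Foxa2, which exceeded Nkx2-2 in 13 of 13 embryos, while Nkx2-2 and Pax7 changed places between embryos. A different Pax6-to-Shh order between the labels was not tested.

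Several members spread widely over the xHomo embryos. For log2(FPKM+1) the members' median SD was 0.28 in the xHomo embryos, where all genes tested had 0.23, and 0.08 in the xHet embryos, where all genes had 0.10. Shh and Nkx6-1 had the largest SD among xHomo embryos, 0.42 each (89.3% of all genes tested had a smaller one), followed by Dbx1 at 0.38 and Irx3 at 0.34, while Pax3 had 0.18. The spread of Shh and Nkx6-1 rests on xHomo embryo 3. Without it, an alternative added after the data were seen, the SD over 9 xHomo embryos was 0.23 for Shh and 0.25 for Nkx6-1, and 0.38 for Dbx1, then the largest of the members. The median of the members was then 0.22, against 0.18 over all genes tested. Groups of 10 and 3 embryos are not alike in how well they show a spread.

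A ventral-to-dorsal index was taken in each embryo, the mean log2(FPKM+1) of the 5 ventral members minus that of the 5 intermediate and dorsal ones. It averaged -0.67 ± 0.21 (SD, n = 10) in the xHomo and -0.62 ± 0.05 (SD, n = 3) in the xHet embryos, a difference of -0.05, smaller than the SD of the xHomo embryos and above 0 in some alternatives, 0.04 without embryos 3 and 9 among them. The lowest values were -1.15 in xHomo embryo 9 and -0.88 in xHomo embryo 3, and the highest was -0.40 in xHomo embryo 2, against -0.64, -0.66 and -0.56 in xHet embryos 1 to 3. The other 7 xHomo embryos lay between -0.67 and -0.56. Without embryos 3 and 9 the xHomo mean was -0.58 ± 0.08 (SD, n = 8). Leaving out each member in turn, an alternative added after the data were seen, kept embryo 9 lowest and embryo 3 next in all 10 cases.

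On the FPKM scale the embryos at the low end of the index reached it in different ways, a contrast that changed with scaling. In xHomo embryo 9 the ventral members Shh (8.90 FPKM), Nkx2-2 (0.99), Nkx6-1 (6.64) and Olig2 (4.71) were below every xHet embryo. With Dbx1 (5.27) that makes 5 of 10 members below every xHet embryo, against 30.8% of all genes tested. In the same embryo Irx3 (40.7), Pax3 (10.7) and Pax7 (2.35) were the highest of all 13, which makes 3 of 10 members, against 22.9% of all genes tested. The same 3 of 10 were above every xHet embryo, against 47.0% of all genes. Nkx2-2 was the lowest of all 13 there, 1 of 10 members, against 9.12% of all genes. In xHomo embryo 3, 4 of 5 ventral and 4 of 5 intermediate and dorsal members were below every xHet embryo, where 62.3% of all genes tested were, and 0 of 10 were above every xHet embryo, where 20.1% were. The ventral members lay there at a median of -0.72 log2 units from the xHet mean and the intermediate and dorsal ones at -0.32, against -0.27 over all genes tested. In xHomo embryo 3, 7 of 10 members were the lowest of 13, against 51.3% of all genes tested. After median-of-ratios scaling it was 3 of 10, against 23.8% of all genes. That scaling put Dbx1 (8.40), Irx3 (24.47) and Pax3 (8.60) of embryo 3 above every xHet embryo. For Irx3 the margin was small, against at most 24.43 in the xHet embryos. Shh, Nkx2-2, Nkx6-1, Olig2, Pax6 and Pax7 stayed below every xHet embryo. The shares of all genes above and below every xHet embryo were not counted on that scale. The part of the state of these libraries in the members' values was not tested. In xHomo embryo 2, at the high end, Nkx6-1 (6.50), Olig2 (3.86), Pax6 (11.6), Dbx1 (4.67), Irx3 (21.3) and Pax7 (1.51 FPKM) were below every xHet embryo, where 30.9% of all genes were. Shh, Foxa2 and Nkx2-2 were above every xHet embryo there, where 27.8% of all genes were.

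**Figure D3:**
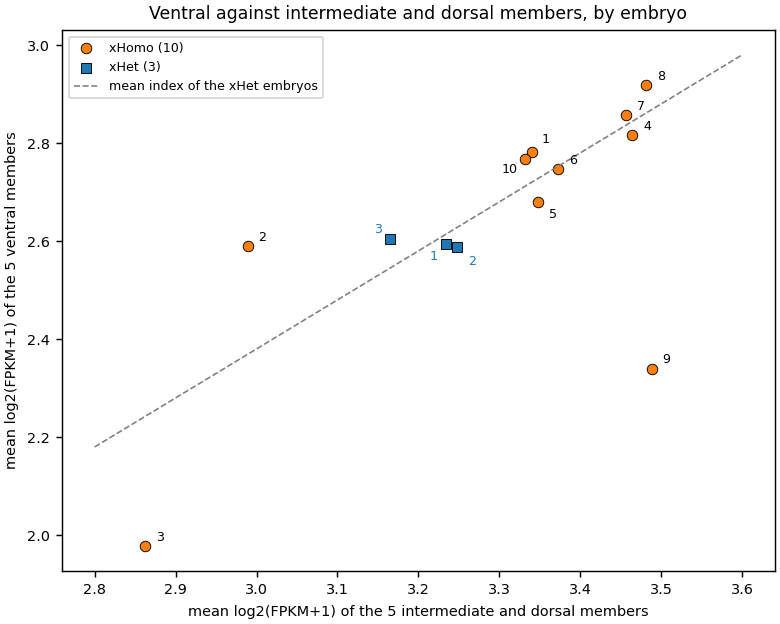
Mean log2(FPKM+1) of the 5 ventral members (vertical) against that of the 5 intermediate and dorsal members (horizontal) in the 10 xHomo and 3 xHet embryos; the dashed line marks the mean index of the xHet embryos. xHomo embryos 9 and 3 lie farthest below the line, with indices of -1.15 and -0.88.

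Other genes of the hedgehog pathway stood on both sides of 0 between the labels. Of 17 listed, 15 were tested, 6 with a log2 difference above 0 (59.7% of all genes were) and 9 below, with a median of -0.05. The median was -0.16 after TPM rescaling (4 above and 12 below), -0.09 after median-of-ratios scaling and -0.08 after quantile normalization, but 0.06 among the embryos with Xist under 1 FPKM and 0.02 without xHomo embryos 3 and 9. In limma 0 passed (0.0235% of all genes did) and 0 had an unadjusted p under 0.05 (9.35% of all genes did). After median-of-ratios scaling 2 had such a p, and 1 after quantile normalization. The direct targets of the signal did not pass. Ptch1, the receptor, stood at 13.8 ± 4.35 FPKM (SD, n = 10) in xHomo and 14.997 ± 0.549 FPKM (SD, n = 3) in xHet embryos (limma adjusted p = 0.851). Gli1, a transcription factor that the pathway induces, stood at 21.0 ± 5.46 FPKM in xHomo and 24.2 ± 0.928 FPKM in xHet embryos (limma adjusted p = 0.755). Hhip, a membrane protein that binds and holds the ligand, stood at 1.59 ± 0.345 FPKM in xHomo and 1.90 ± 0.0794 FPKM in xHet embryos (limma adjusted p = 0.692). Gas1, a coreceptor with the smallest p of the list, had a log2 difference of 0.26 (limma adjusted p = 0.559).

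The pathway stood differently in the low-index embryos. In xHomo embryo 3 all 15 tested pathway genes were the lowest of the 13 embryos, against 51.3% of all genes, and 11 of 15 after median-of-ratios scaling, against 23.8%. Ptch1 was 5.47 and Gli1 8.96 FPKM there, against 14.7 to 15.6 and 23.5 to 25.3 FPKM in the xHet embryos. In xHomo embryo 9, with low Shh and Nkx2-2, Gli1 was 29.1 FPKM, the highest of all embryos, Ptch1 11.98 and Hhip 1.84 FPKM. There the list lay at a median of -0.01 log2 units from the xHet mean, against 0.08 over all genes.

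Genes of the roof plate signals, which oppose Shh, and of responders to such signals were tested in 12 of 13 cases. In RNA of whole embryos the tissue they come from was not measured. Their log2 difference was above 0 in 12 of 12, with a median of 0.30, against 59.7% of all genes and a median of 0.05. None passed in limma, and 5 of 12 had an unadjusted p under 0.05, all with xHomo higher, against 7.63% of all genes. They were Wnt4, Bmp6, Id2, Id3 and Smad6. Wnt1 (unadjusted limma p = 0.151) and Wnt3a (0.195) were not among them. The difference was above 0 in 12 of 12 also after each of the 3 rescalings, with medians of 0.24 to 0.27, and without xHomo embryos 3 and 9, with a median of 0.29. Id3, a target of Bmp signals, stood at 161 ± 19.5 FPKM (SD, n = 10) in xHomo and 122 ± 4.21 FPKM (SD, n = 3) in xHet embryos (limma adjusted p = 0.449). Smad6, an inhibitor that the same signals induce, stood at 7.88 ± 1.09 FPKM in xHomo and 5.89 ± 0.428 FPKM in xHet embryos (limma adjusted p = 0.481). For these 2 genes the groups did not overlap, against 1.66% of genes with xHomo higher. In xHomo embryo 9, 9 of these 12 genes were the highest of 13 (22.9% of all genes), and 7 after median-of-ratios scaling (17.9%). Wnt1 was 14.9 FPKM there, against 3.28 to 5.03 FPKM in the xHet embryos.

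Further patterning genes were counted by position. Over all genes tested, 59.7% were above 0 and the median was 0.05. In limma 0.0235% of all genes passed and 9.35% had an unadjusted p under 0.05. Of 11 other ventral and floor plate genes 7 were tested, 5 above and 2 below 0 (4 and 4 after TPM rescaling, 4 and 3 after median-of-ratios scaling), with a median of 0.03 (0.0032 after median-of-ratios scaling); in limma 0 passed and 1 had an unadjusted p under 0.05, or 2 after each rescaling. Nkx6-2, a relative of Nkx6-1 expressed near Dbx1, stood at 7.48 ± 1.89 FPKM (SD, n = 10) in xHomo and 5.29 ± 0.376 FPKM (SD, n = 3) in xHet embryos (limma adjusted p = 0.531). Of 14 other intermediate and dorsal genes 10 were tested, 10 above and 0 below 0, with a median of 0.19; in limma 0 passed and 1 had an unadjusted p under 0.05. After TPM rescaling 9 of 11 were above 0, the median was 0.10 and 0 had an unadjusted p under 0.05. The smallest p-values there were those of Olig3, a dorsal relative of Olig2, with a log2 difference of 0.32 (limma adjusted p = 0.4999), and Tlx3, a homeobox gene of dorsal neurons, with 0.33 (limma adjusted p = 0.577). Of 13 retinoic acid and Fgf genes 10 were above and 3 below 0 (9 and 4 after each rescaling), with a median of 0.16 (0.08 after TPM rescaling); in limma 0 passed and 2 had an unadjusted p under 0.05, or 1 after TPM or median-of-ratios scaling. Rarg, a retinoic acid receptor gene, had a log2 difference of 0.26 (limma adjusted p = 0.518), and Crabp1, which encodes a retinoic acid binding protein, 0.39 (limma adjusted p = 0.528).

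**Figure D4:**
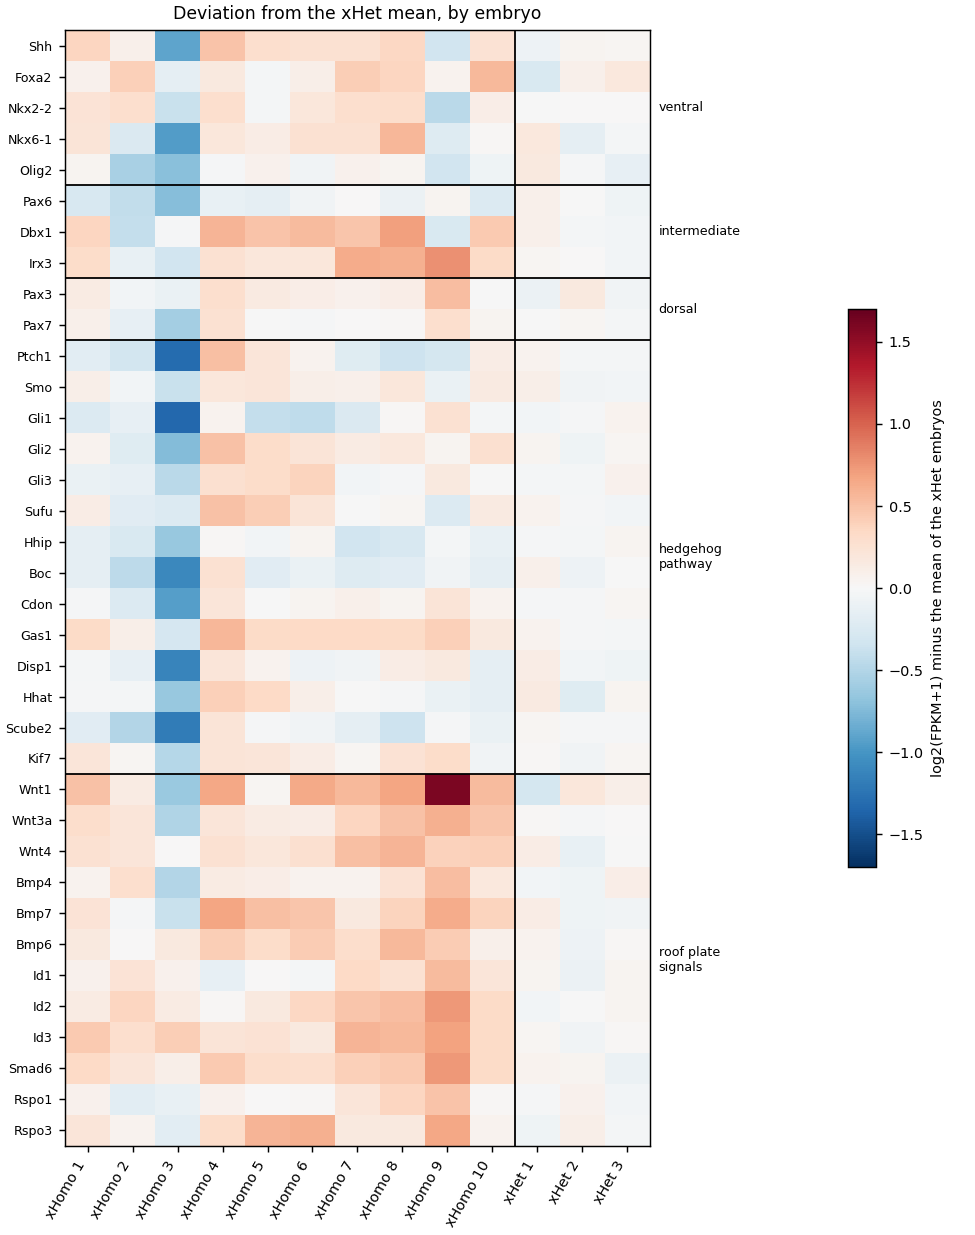
Difference in log2(FPKM+1) from the mean of the xHet embryos (colour) for the members, tested hedgehog pathway genes (1 not shown) and the tested roof plate signals and responders (rows) in each embryo (columns, xHomo left of xHet). xHomo embryo 3 is low through the pathway, with Ptch1 at 5.47 FPKM, and Wnt1 in xHomo embryo 9 (14.9 FPKM) is the strongest positive value.

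Markers of tissues that share these genes were summed per embryo. Neural progenitor markers, 8 of 8 tested, summed to 136 to 214 FPKM in the xHomo and 159 to 183 FPKM in the xHet embryos. Of these markers 7 were above and 1 below 0 between the labels (5 and 3 after TPM rescaling or quantile normalization), with a median of 0.08 (0.0088 after TPM rescaling), and in limma 0 passed and 0 had an unadjusted p under 0.05. Over all genes tested, 59.7% were above 0, the median was 0.05, 0.0235% passed and 9.35% had an unadjusted p under 0.05. Sox2 had a log2 difference of 0.20 (limma adjusted p = 0.569) and Fabp7 0.15 (limma adjusted p = 0.854). In xHomo embryos 3 and 9 this sum was 153 and 158 FPKM, and it was lowest in xHomo embryo 2. Notochord markers, of which 5 of 7 were tested and Shh is itself a member, summed to 46.1 to 79.1 FPKM in the xHomo and 51.1 to 57.1 FPKM in the xHet embryos. The largest part of this sum was the keratin gene Krt8, at a mean of 40.8 FPKM in xHomo and 28.7 FPKM in xHet embryos. Its log2 difference was 0.47 (limma adjusted p = 0.481), against -0.23 for T, -0.19 for Chrd, 0.19 for Nog and 0.11 for Shh. T, the notochord and tail bud factor Brachyury, ran from 4.60 to 8.71 FPKM in the xHomo and from 6.67 to 8.83 FPKM in the xHet embryos.

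Gut endoderm markers, 6 of 9 tested, summed to 53.6 to 153 FPKM in the xHomo and 105 to 143 FPKM in the xHet embryos. The lowest sum was that of xHomo embryo 3, which was also lowest for Shh. Of the tested endoderm markers 5 of 6 were lowest there, against 51.3% of all genes, and 3 of 6 after median-of-ratios scaling, against 23.8%. Somite and dermomyotome markers, 9 of 9 tested, summed to 46.7 to 66.6 FPKM in the xHomo and 52.8 to 61.8 FPKM in the xHet embryos. Neural crest markers, 7 of 7 tested, summed to 38.3 to 51.2 FPKM in the xHomo and 41.5 to 45.0 FPKM in the xHet embryos. The highest sums of both lists were those of xHomo embryo 9, which was also highest for Pax3 and Pax7. It was highest for 4 of 9 somite and 2 of 7 neural crest markers, against 22.9% of all genes. After median-of-ratios scaling it was highest for 3 of 9 and 1 of 7, against 17.9% of all genes. Eye and forebrain markers, 7 of 8 tested, summed to 34.8 to 48.7 FPKM in the xHomo and 33.3 to 35.8 FPKM in the xHet embryos, while Pax6 had a log2 difference of -0.20. None of the markers was under 0.1 FPKM in every embryo, and among the lowest were Hnf4a (0.08 to 0.29 FPKM in xHomo) and Noto (0.03 to 0.68 FPKM in xHomo). The part of these tissues in the members' values was not tested.

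Likeness between members across the 13 embryos was measured as Pearson's r of log2(FPKM+1) and is a description, since all genes of an embryo share its library. Shh was most like Nkx6-1 among the members (r = 0.872), which ranked 113 of the 12754 other genes tested, and least like Pax3 (0.209). Nkx2-2 was most like Shh (0.840), which ranked 8 of the 12754 other genes tested, and least like Pax3 (-0.196). For the remaining members the most alike member ranked from 27 (for Olig2) to 2066 (for Irx3). Without xHomo embryo 3, which is low in most genes, the likeness of Shh with Nkx2-2 was 0.822, that of Nkx6-1 with Dbx1 was 0.875 and that of Pax3 with Pax7 0.847. Without that embryo Shh with Pax7 was -0.10 and Shh with Pax6 -0.421, where all 13 embryos gave 0.645 and 0.474. Those likenesses rest on xHomo embryo 3. Shh with Nkx6-1 fell to 0.649 without it, and Shh was then most like Nkx2-2.

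Among the members Foxa2 had its highest likeness, 0.578, to Nkx2-2, with 0.507 to Shh, 0.322 to Nkx6-1 and 0.0384 to Olig2. Without xHomo embryo 3 these were 0.474, 0.351, 0.0229 and -0.349. Of all genes tested, those most like Shh were Lrp11 (0.957) and Sox21, a neural transcription factor gene (0.951). They were 5730457N03Rik (0.869) and Sdsl (0.857) for Foxa2, Snord23 (0.917) and Xbp1 (0.880) for Nkx2-2, and Shf (0.926) and Wipi2 (0.922) for Nkx6-1. Olig2 was nearest to Fam109a (0.951) and Lpin2 (0.940), Pax6 to Arih2 (0.914) and Sugp2 (0.906), and Dbx1 to Fam172a (0.962) and Kctd15 (0.933). Irx3 was nearest to Ccdc61 (0.971) and Poll (0.958), Pax3 to Rpusd1 (0.913) and 6430598A04Rik (0.904), and Pax7 to Nuak2 (0.966) and Abca3 (0.963). These genes were picked as the highest of 12754 values for each member, over 13 embryos. Without xHomo embryo 3 their likenesses ran from 0.739 (Pax6 with Sugp2) to 0.968 (Irx3 with Poll).

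**Figure D5:**
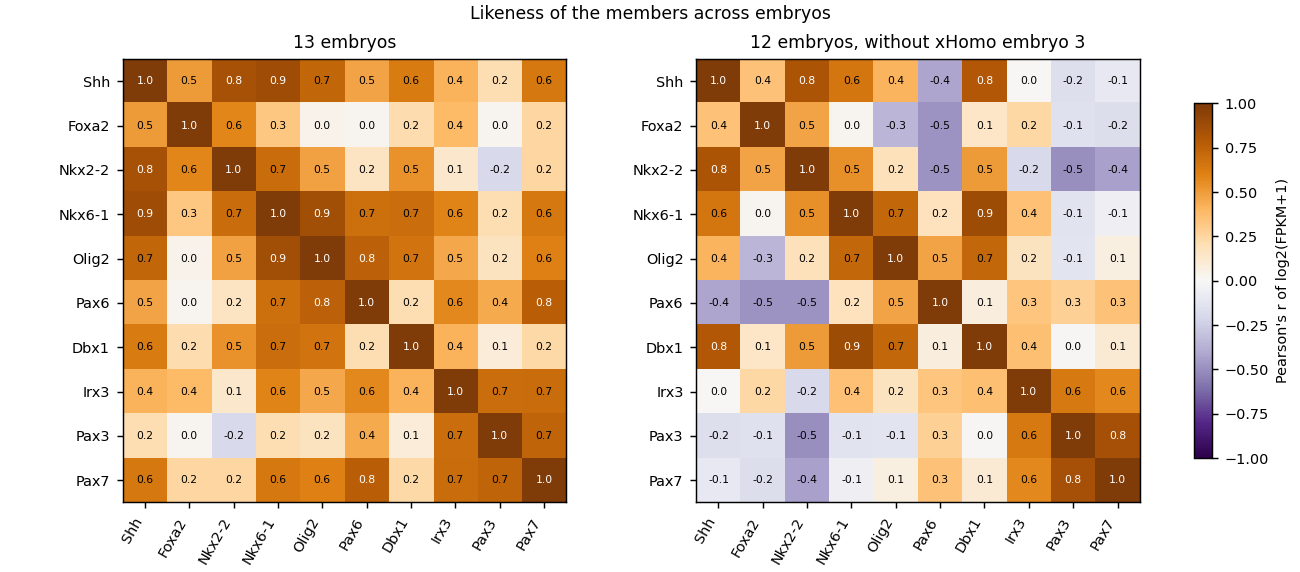
Pearson's r of log2(FPKM+1) between members (rows and columns, ventral to dorsal) over all 13 embryos (left) and over 12 without xHomo embryo 3 (right). On the right Shh, Nkx2-2, Nkx6-1 and Dbx1 have values of 0.507 to 0.875 among themselves, and Pax3 with Pax7 has 0.847.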

How the data were processed

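Poly(A) RNA of 13 mouse embryos was sequenced, 10 labelled xHomo and 3 labelled xHet. Per the labels' protocols, RNA was purified on RNeasy columns with DNase and libraries were made with a directional NEBNext Ultra kit. The authors deposited FPKM values per gene and embryo, with loci on mm9. The submitters' processing notes name TopHat and Cufflinks, without versions, and bcl2fastq 1.8.2. The sources used here name neither the annotation nor the strand setting. Such values hold no counts, so depth is unknown, and abundant RNAs can shift all other values. Locus starts were taken as counted from 0 and raised by 1, because the span without that base matched the RefSeq length for 7169 genes and the other reading for 455.

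The 12755 genes averaging 1 FPKM or more were tested on log2(FPKM+1), so fold changes understate those of low genes. The test was limma 3.58.1 in R 4.3.3 (eBayes with a trend, two-sided, no covariates), with Benjamini-Hochberg adjustment over all genes tested at 0.05; it was tested on simulated data. Computation used Python 3.11.15, numpy 2.4.6, pandas 2.3.3 and statsmodels 0.14.6, and figures matplotlib 3.10.9. Alternatives were pseudocounts, no filter, rescalings, a Xist covariate, array weights, a replicate block, an exact permutation test and leaving out embryos. All 10 members were named. Of each other list the 2 genes with the smallest p were named, apart from 2 genes that are not reported here, with Ptch1, Gli1 and Hhip as direct targets. For each member the 2 most alike genes were named. Promoter windows of chromosome 18 were left out. Tet1, Xist, Ddx3y and Eif2s3y served as checks. Further genes, such as Wnt1, Wnt3a, T, Krt8, Chrd, Nog, Hnf4a and Noto, were chosen after their values were seen. The members and lists were chosen with earlier results of these data known.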

Additional observations from a re-analysis of the deposited data

Results flagged for a closer look

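Pax7 in xHomo embryo 3 stood far from the other embryos of its label, at 0.85 FPKM against 1.51 to 2.35 FPKM in the other xHomo embryos. Its gap to the next value was 0.514 of the range of the 10 embryos on the log2(FPKM+1) scale, above Dixon's 95% critical value of 0.466. The next closest was Nkx6-1 in the same embryo, at 0.460. Chance marks about 1 in 20 such groups, and 11 measures were examined. After median-of-ratios scaling Pax7 was 1.12 FPKM in this embryo.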

How the results depend on the processing

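The number of genes passing between the labels, 3 of 12755, was 11 with no filter on low values, 6 after TPM rescaling, 5 after quantile normalization, 1 with the Xist covariate, 2779 with array weights, 1 with the replicate block, 0 in the exact permutation test, 8 among embryos with Xist under 1 FPKM and 8 without xHomo embryos 3 and 9; the last pair were added after the data were seen. The permutation test could not give a p below 0.0035, so its 0 says little. Leaving out 1 embryo gave 1 to 11, the 11 without xHomo embryo 3. The number of members passing stayed at 0 except with array weights, where it was 2, and was 0 in each fit that left out 1 embryo. The cause was not tested. The block joined the embryos numbered 1 to 3 of each label; equal numbers did not deviate together (correlations -0.0652, -0.0403 and -0.0383), so they share only a number.

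No difference whose sign turned passed where it turned. With the block Shh was -0.15, Nkx6-1 -0.33, Dbx1 -0.0199, Irx3 -0.0448 and Pax3 -0.0099. Nkx6-1 was -0.0530 after TPM rescaling and -0.0164 after median-of-ratios scaling. Pax7 was 0.0022 with a pseudocount of 5, 0.0288 with the Xist covariate, 0.0317 with array weights, 0.0646 among embryos with Xist under 1 FPKM, where Olig2 was 0.0178, and 0.0304 without xHomo embryos 3 and 9. Without 1 embryo Nkx6-1 ran from -0.0523 to 0.130 and Pax7 from -0.0367 to 0.0585. Foxa2, Nkx2-2 and Pax6 kept their sign in all 25 alternatives. Of these alternatives 13 left out 1 embryo, and the permutation test and the fit without a filter cannot change a difference. The difference in the index ran from -0.08 to 0.0075 without 1 embryo, above 0 without xHomo embryo 9. It was also above 0 with array weights (0.0158), with the replicate block (0.0056), among embryos with Xist under 1 FPKM (0.0069), with the Xist covariate (0.00099) and without xHomo embryos 3 and 9 (0.0415). Depth is unknown, so Nkx2-2, Pax7 and Foxa2, the lowest members, are the least certain.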
